A study of Mus musculus with 6 samples.

Results

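The genes of the proteasome were described in CD8+ T cells from mouse spleen that had been exposed to neutrophil extracellular traps (NETs) or left as controls. The members were the 46 genes, of the 22064 listed in the deposited tables, whose symbols begin with Psma, Psmb, Psmc, Psmd, Psme or Psmg and a digit. Psmb8, Psmb9 and Psmb10, the immunoproteasome catalytic subunits, were kept apart and served as a comparison. All 46 members had values, and none was blank. The rule goes by symbol alone, so it also takes Psme2b, a close copy of the activator gene Psme2, and Psmc3ip, which is named for a partner of Psmc3 and encodes a meiotic recombination factor and no proteasome subunit.

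The NET group held 3 samples treated with NETs at 10 μg/mL and the control group held 3 samples without them. The labels give spleen as the tissue of both groups and no age, genotype or sex. In the study's methods the splenic cells came from BALB/c mice, and their culture with or without NETs lasted days rather than hours. An age range is given there for the BALB/c mice bought, but it is not tied to these samples. The NETs had been prepared from neutrophils activated by the protein kinase C activator PMA, so the NETs and any carried-over stimulus cannot be told apart here. No source used here states whether the samples of a group are separate mice or cultures. The p-values set the difference between the groups against the spread within them, estimated with help from all genes tested. That spread could be technical, so the p-values reach no further than these 6 samples.

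The proteasome is the protease complex that degrades ubiquitin-tagged proteins in the cytosol and nucleus and supplies peptides for MHC class I presentation. Its 20S core is a stack of rings of alpha subunits, which gate entry, and beta subunits, some of which carry the proteolytic sites. The 19S regulatory particle caps the core. Its base holds AAA ATPases that unfold substrates and receptors that bind ubiquitin, and its lid removes the ubiquitin chain. Dedicated chaperones assemble both parts, and other activators, among them PA28 (Psme1 and Psme2 in the cytosol, Psme3 in the nucleus) and PA200 (Psme4), can bind the core in place of the 19S particle. Subunit genes are known to rise together when proteasome capacity falls short, through the transcription factor Nfe2l1. T cells, which divide fast once activated, induce the immunoproteasome subunits under interferon gamma.

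Library totals lay between 18696355 and 19425700 estimated counts. Members held 0.736%, 0.714% and 0.676% of the counts in NET samples 1 to 3, against 0.597%, 0.594% and 0.592% in control samples 1 to 3. CD8 T cell markers (7 of the 8 listed had values) summed to 2616 to 2961 CPM (counts scaled to library size) in NET samples and 3845 to 3996 CPM in control samples, and 6 of them were lower with NETs. B cell markers were present at lower levels and all 8 were higher with NETs, with sums of 138 to 218 CPM in NET samples and 32.3 to 40.0 CPM in control samples. Plasma cell markers, a list led by Irf4 and Xbp1, which activated T cells also express, summed to 684 to 847 CPM in NET samples and 513 to 526 CPM in control samples (5 of 6 higher). Jchain and Mzb1, which mark antibody-secreting cells more closely, had 26.6 to 30.7 and 13.4 to 18.3 CPM in NET samples, against 3.81 to 6.95 and 1.89 to 3.14 CPM in control samples. Macrophage markers summed to 24.9 to 29.2 CPM and neutrophil markers to 31.9 to 37.2 CPM in NET samples, against 12.0 to 15.8 CPM and 19.4 to 23.5 CPM in control samples. Of 3 macrophage markers tested 2 were higher with NETs: Cd68 had 18.6 to 18.9 CPM in NET samples and at most 9.57 CPM in control samples, and Adgre1 had 2.40 to 5.09 CPM in NET samples and 1.20 to 2.10 CPM in control samples. C1qa, C1qb and C1qc of that list were at or near 0 in every library. Of 5 neutrophil markers tested 4 were higher and 0 lower with NETs. S100a8 had 3.86 to 4.79 CPM in NET samples and at most 0.209 CPM in control samples. S100a9 had 2.45 to 3.77 CPM in NET samples and at most 0.148 CPM in control samples. Dendritic cell markers summed to 20.9 to 23.6 CPM in NET samples and 14.5 to 17.3 CPM in control samples (2 of 4 tested higher, 1 lower). The part of these cell types in the results below was not tested. Since the libraries are bulk RNA, a change in the number of cells of a type and a change in RNA per cell cannot be told apart.

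The regions upstream of the members' transcription start sites are given first, because shared sequence elements are the known route by which these genes are controlled together. RefSeq promoter windows of GRCm38.p6, running from 250 bases before to 50 bases after the start, were available for 38 of the 46 members. Each window was searched on both strands. The core of the antioxidant response element (TGACNNNGC, where N is any base), to which Nfe2l1 and Nfe2l2 bind with small Maf proteins, was found in 6 of 38 members (15.8%), against 17.1% of the 10095 tested genes with a window. The ETS core (CCGGAAGT), bound by ETS family factors, was found in 9 of 38 members (23.7%), against 9.11% of the tested genes and 4.31% of all genes with a window. The interferon response element (GAAA, any 2 bases, GAAA) was found in 5 members, or 13.2%, Psme1 among them, against 3.91% of the tested genes. The CCAAT box was found in 14 members (36.8%) and in 43.4% of the tested genes, the E-box CACGTG in 3 members (7.89%) and 11.6% of the tested genes, the GAS element (TTCNNNGAA) in 2 members (5.26%) and 8.39%, and the palindromic nuclear respiratory factor site in 2 members and 2.32%. A match is a description of letters and not of binding. The 250 bases upstream of 4 members are printed 5′ to 3′ on the gene's strand, with matches to the first 2 motifs on either strand in capitals. The matches do not overlap one another. Psmd12 is shown because it rose with NETs and holds both motifs, Psmb5 for its antioxidant response element, and Psmc2 for its ETS core. Psmd8, the subunit gene with the largest fold change among the members, is shown because it holds neither motif. Upstream antioxidant response elements nearer the start than that of Psmb5 were found in Psmb6 (9 bases) and Psmd9 (31 bases), whose stretches are not printed. The stretches are chr11:107479278-107479527 (plus strand) for Psmd12, chr14:54617996-54618245 (minus strand) for Psmb5, chr5:21786497-21786746 (plus strand, the second of the starts listed) for Psmc2, and chr7:29180674-29180923 (minus strand) for Psmd8.
Psmd12: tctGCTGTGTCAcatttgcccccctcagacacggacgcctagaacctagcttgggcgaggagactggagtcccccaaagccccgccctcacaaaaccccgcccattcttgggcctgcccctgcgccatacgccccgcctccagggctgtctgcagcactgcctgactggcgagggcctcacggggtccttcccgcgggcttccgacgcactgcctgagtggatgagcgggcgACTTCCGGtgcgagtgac
Psmb5: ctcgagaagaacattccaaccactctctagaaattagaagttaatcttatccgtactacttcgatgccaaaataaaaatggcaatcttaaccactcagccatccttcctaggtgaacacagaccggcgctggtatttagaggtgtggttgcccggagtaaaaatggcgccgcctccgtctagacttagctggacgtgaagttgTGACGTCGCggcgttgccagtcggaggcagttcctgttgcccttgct
Psmc2: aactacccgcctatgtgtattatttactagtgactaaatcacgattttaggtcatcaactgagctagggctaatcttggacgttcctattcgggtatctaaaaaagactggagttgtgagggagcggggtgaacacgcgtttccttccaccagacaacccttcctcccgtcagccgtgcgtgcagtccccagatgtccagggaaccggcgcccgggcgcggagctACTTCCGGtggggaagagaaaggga
Psmd8: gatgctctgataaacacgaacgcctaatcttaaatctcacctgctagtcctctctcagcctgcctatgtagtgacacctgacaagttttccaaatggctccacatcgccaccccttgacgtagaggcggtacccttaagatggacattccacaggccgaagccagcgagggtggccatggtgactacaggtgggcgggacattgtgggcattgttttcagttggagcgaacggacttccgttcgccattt

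In these stretches the antioxidant response element of Psmb5 began 47 bases and that of Psmd12 began 247 bases before the start, and the ETS core lay 18 bases before the start of Psmd12 and 25 bases before that of Psmc2. Of the 9 members with an ETS core, 4 rose with NETs, and of the 6 with an antioxidant response element, 3 rose. Among all 38 members with a window, 14 rose, and of all genes tested 22.3% rose. Psmd8, the member with the largest rise, thus had neither motif in its window, and no match says only that these letters are not there.

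NETs raised 17 of the 45 members tested and lowered 1, at an adjusted p below 0.05 in edgeR's quasi-likelihood test over all 12546 genes that passed the filter on low counts. The share raised was 37.8%, against 22.3% of all genes tested, and the share lowered was 2.22%, against 22.3% of all genes. The rises were small. The median log2 fold change of the tested members was 0.23, against −0.01 for all genes, and 40 of the 45 members had a positive value. Only Psmd8 among those raised and Psme2b, the member lowered, also passed a threshold of 0.58 on the log2 scale, which 13.4% of all genes passed upward and 11.9% passed downward. The values of the NET and control samples did not overlap in 27 members that were higher with NETs (60.0%, against 27.4% of all genes) and in 2 that were lower (against 27.2%). Psma8 did not pass the filter.

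Replicate numbers are shared between the groups. With the replicate number as a block, 26 members were higher and 2 were lower, against 27.8% of all genes higher and 28.2% lower in that fit. The members added were Psma1, Psma6, Psma7, Psmb5, Psmc1, Psmc4, Psmc5, Psmd11 and Psme4, which were higher, and Psme1, which was lower. The number raised was 11 without control sample 2, the lowest count in fits that left out a library. In that fit 17.5% of all genes rose. Each same-numbered pair gave a count of its own: 40 members were higher in NET sample 1 than in control sample 1, 41 in the second pair and 32 in the third, and 32 were higher in all 3 pairs, against 36.8% of all genes.

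**Figure D1:**
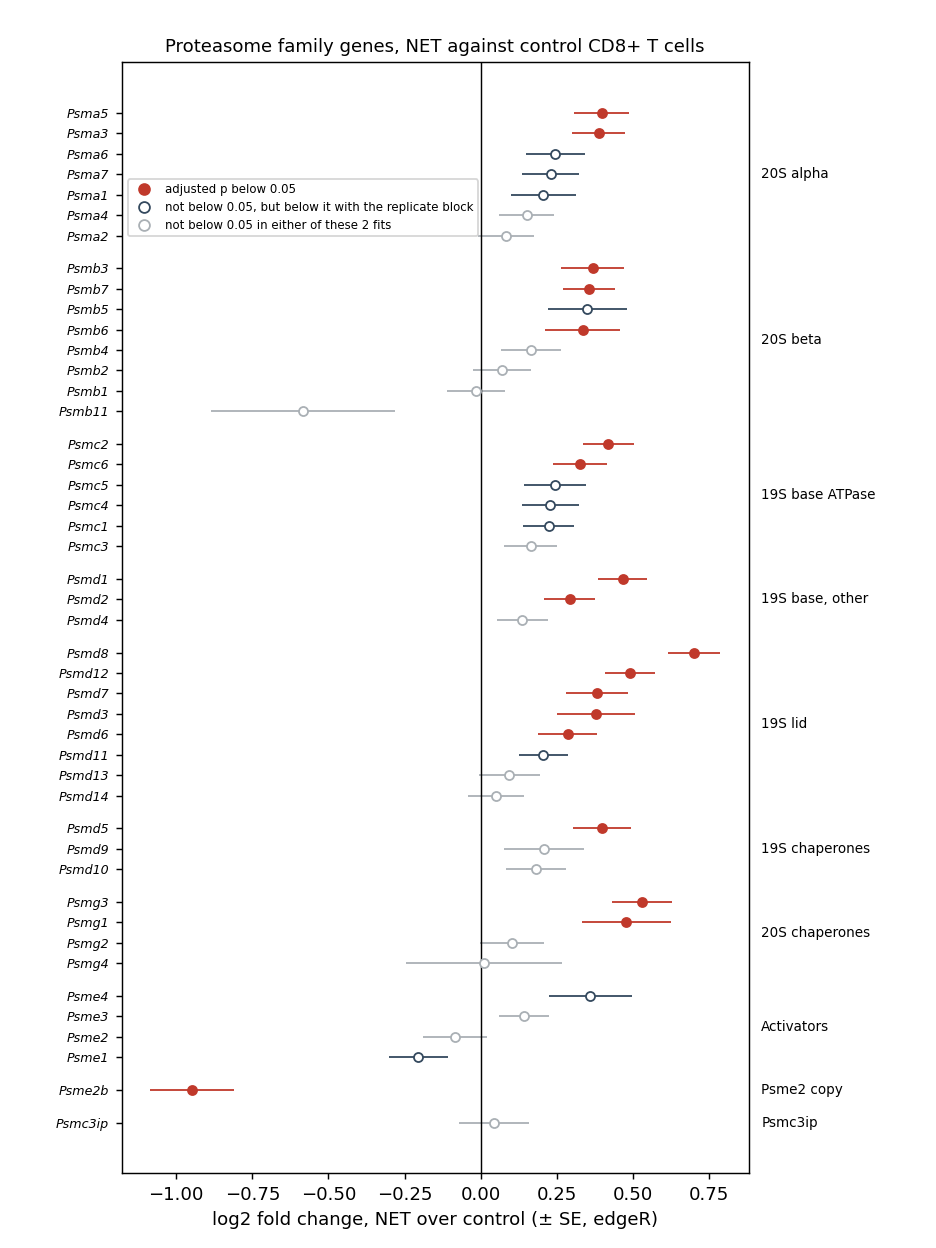
The log2 fold change of each tested member, NET over control, is plotted by role with bars for the SE of edgeR (3 NET and 3 control samples). Filled points passed an adjusted p of 0.05, dark open points did not pass it but did so with the replicate block, and grey open points passed it in neither of these 2 fits. The subunit groups lie to the right of 0 except Psmb1 and Psmb11, while Psme1, Psme2 and Psme2b lie to the left.

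Of the 31 members that encode subunits of the standard 26S particle (the 20S core with the 19S cap), 14 rose and 0 fell. The share raised was 45.2%, against 22.3% of all genes, and 22.3% of all genes fell. With the replicate block 22 rose (71.0%, against 27.8% of all genes). The 31 leave out the tissue-restricted Psma8 and Psmb11, and the subunit genes Adrm1 and Sem1, whose symbols lie outside the family. The median log2 fold change of the 31 was 0.24, and 30 of 31 values were positive. The fold changes of the core subunits ran between −0.02 (Psmb1) and 0.40 (Psma5), and those of the 19S subunits between 0.05 (Psmd14) and 0.70 (Psmd8). Of 14 core subunits 5 rose (35.7%), and of 17 subunits of the 19S particle 9 rose (52.9%), against 22.3% of all genes. The difference between these counts was not tested.

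Among the alpha subunits, which form the outer rings of the core, 2 of 7 tested rose (28.6%, against 22.3% of all genes). With the replicate block 5 did so (71.4%, against 27.8% of all genes). Psma3 (NCBI gene 19167; GRCm38, chromosome 12, 70969283 to 70995877) had 249, 241 and 223 CPM in NET samples, against 174, 189.6 and 182 CPM in control samples. The NET samples were all above the control samples, and the log2 fold change was 0.39 ± 0.09 (SE; edgeR adjusted p = 0.0051). Psma5 had 225, 239 and 211 CPM in NET samples and 160.1, 179 and 174 CPM in control samples, again without overlap (0.40 ± 0.09, edgeR adjusted p = 0.0054). Psma6 did not overlap either, at 177, 204 and 191 CPM with NETs and 146, 168 and 168 CPM in controls, but its spread among replicates was wide beside the difference. Its log2 fold change of 0.24 ± 0.10 had an edgeR adjusted p of 0.0615, and of 0.0099 with the replicate block.

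Per transcript length, Psma2 was the most abundant alpha subunit, at a mean of 236 FPKM (fragments scaled for transcript length and library size) with NETs and 219.8 FPKM in controls, and Psma4 had the lowest mean over both groups, at 176 FPKM with NETs and 156 FPKM in controls. Neither passed the test (log2 fold changes of 0.08 ± 0.09 and 0.15 ± 0.09, edgeR adjusted p of 0.498 and 0.199). Psma8, the testis alpha subunit that replaces Psma7 in germ cells, had 7, 7 and 8 counts in NET libraries and 3, 0 and 5 counts in control libraries. These were too few for the test.

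Of 8 beta subunits, which include the proteolytic ones, 3 rose (37.5%, against 22.3% of all genes). Psmb7, the trypsin-like catalytic subunit (NCBI gene 19177; chromosome 2, 38588046 to 38643952), had 201, 190.0 and 179 CPM in NET samples and 151, 150.1 and 145 CPM in control samples. The groups were well apart, with a log2 fold change of 0.35 ± 0.09 (edgeR adjusted p = 0.0071). Its annotated gene overlaps 6571 bases of Nek6 on the other strand. Nek6 averaged 51.9 CPM with NETs and 16.8 CPM in controls, and since no source says whether counting used strand, reads of the pair cannot be told apart in the overlap. Psmb3, a structural subunit, had 165, 145 and 133 CPM with NETs and 116, 106 and 122 CPM in controls, without overlap (0.37 ± 0.10, edgeR adjusted p = 0.0159). That call was lost without NET sample 1 (adjusted p = 0.0528) and without control sample 2 (0.0824).

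Psmb6, the caspase-like catalytic subunit, had 106, 86.6 and 81.5 CPM in NET samples, against 82.1, 66.0 and 69.2 CPM in control samples. Control sample 1 lay above NET sample 3, and sample 1 had the highest value in either group. The log2 fold change was 0.33 ± 0.12 with an edgeR adjusted p of 0.0488, just inside the threshold. The call was lost without NET sample 1 or 2 (adjusted p of 0.157 and 0.0659) and without control sample 2 or 3 (0.178 and 0.139). It was also lost with no filter on low counts (0.0610), in limma-voom (0.0503) and in both limma fits on FPKM (0.0867 and 0.0820). Psmb5, the chymotrypsin-like catalytic subunit and the target of bortezomib, lay just outside. It had 151, 125 and 109 CPM with NETs and 114, 91.7 and 95.9 CPM in controls, a log2 fold change of 0.35 ± 0.13 (edgeR adjusted p = 0.0521, and 0.0024 with the replicate block).

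Psmb4 was the most abundant beta subunit per length over both groups, at 218 FPKM with NETs and 192 FPKM in controls, and did not pass the test (log2 fold change 0.16 ± 0.10, edgeR adjusted p = 0.204). Psmb1 was level, at 180.2, 173 and 155 CPM in NET samples and 158, 175 and 181 CPM in control samples (−0.02 ± 0.10, edgeR adjusted p = 0.906). The 95% interval of that fold change ran between −0.23 and 0.20. Psmb11, the thymus cortex subunit, lies 7314 bases from Psmb5 on chromosome 14. It was barely detected, at 1.65, 1.91 and 2.42 CPM with NETs and 2.08, 4.45 and 2.46 CPM in controls, with overlapping groups.

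**Figure D2:**
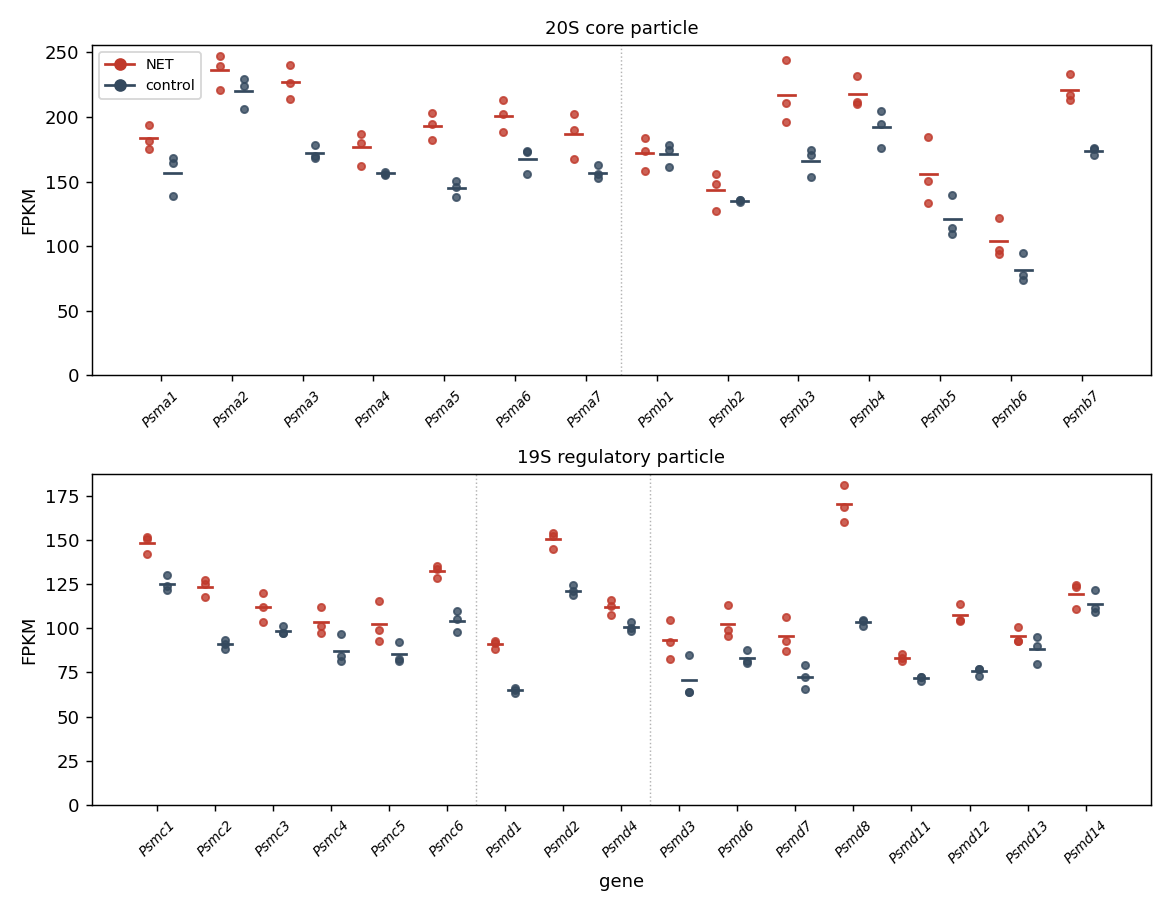
FPKM of each 20S core subunit (above) and each 19S subunit (below) in the 3 NET and 3 control samples, with lines at the group means. Core subunits lie between 81.9 and 219.8 FPKM on average in controls and 19S subunits between 64.9 and 125 FPKM, and the NET points of Psmd8 stand well above those of its controls.

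All 6 ATPases of the 19S base had values without overlap between the groups, higher with NETs, against 27.4% of all genes. Psmc2 and Psmc6 passed the test (33.3%, against 22.3% of all genes). With the replicate block 5 of the 6 passed (83.3%, against 27.8% of all genes). Psmc2 (NCBI gene 19181; chromosome 5, 21785275 to 21803787) had 178, 178 and 165 CPM in NET samples and 123, 131 and 135 CPM in control samples, a log2 fold change of 0.42 ± 0.08 (edgeR adjusted p = 0.0028). Psmc6 had 203, 204 and 194 CPM with NETs, against 147, 169 and 163 CPM in controls (0.33 ± 0.09, edgeR adjusted p = 0.0130). For both genes the lowest NET sample was clearly above the highest control sample.

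Psmc1, the most abundant ATPase transcript per length (148 FPKM with NETs and 125 FPKM in controls), had 219, 220.3 and 205 CPM in NET samples and 176, 193 and 184 CPM in control samples. Its log2 fold change of 0.22 ± 0.08 had an edgeR adjusted p of 0.0555, and of 0.0186 with the replicate block. Psmc5, the least abundant over both groups at 103 FPKM with NETs and 85.4 FPKM in controls, behaved likewise (0.24 ± 0.10, adjusted p = 0.0744, and 0.0130 with the block). Psmc3 and Psmc4 lay between these in level, and Psmc3, which overlaps Slc39a13 on the other strand, was the one ATPase not called in either fit. Psmc3ip, no ATPase, was level at 11.8, 12.3 and 11.2 CPM with NETs and 11.2, 11.2 and 11.9 CPM in controls.

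Psmd1 and Psmd2, the large scaffold subunits of the base, both rose. Psmd1 (NCBI gene 70247; chromosome 1, 86064619 to 86139295) had 292, 285 and 295 CPM in NET samples and 208, 216 and 207 CPM in control samples. Replicates were close together in both groups, and the log2 fold change was 0.47 ± 0.08 (edgeR adjusted p = 0.0011). The annotated gene overlaps 12945 bases of Htr2b on the other strand and 5515 bases of Gm21972 on its own, so reads there cannot be told apart either. Htr2b averaged 2.70 CPM with NETs and 1.70 CPM in controls. Psmd2 had 418, 452 and 442 CPM with NETs and 359, 359 and 354 CPM in controls (0.29 ± 0.08, edgeR adjusted p = 0.0165). Its call was lost without NET sample 2 (adjusted p = 0.0556), control sample 2 (0.0737) or control sample 3 (0.0609). Psmd4, a ubiquitin receptor, had 148, 147 and 138 CPM with NETs and 126, 131 and 136 CPM in controls. Its groups did not overlap, yet the difference of 0.14 ± 0.08 did not pass (edgeR adjusted p = 0.211).

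The lid, which holds the deubiquitinase Psmd14, had 5 of its 8 subunits raised (62.5%, against 22.3% of all genes). Psmd8 (NCBI gene 57296; chromosome 7, 29174187 to 29180673) changed the most. It had 263, 249 and 233 CPM in NET samples, against 151, 156 and 152 CPM in control samples, 1.62-fold higher (log2 fold change 0.70 ± 0.09, edgeR adjusted p = 0.000123). Per length it was the most abundant 19S subunit with NETs, at 170.0 FPKM, against 103 FPKM in controls, where Psmc1, Psmd2, Psmd14 and Psmc6 were above it. Psmd12, a PCI domain subunit of the lid (NCBI gene 66997; chromosome 11, 107479528 to 107498036), had 189, 177 and 173 CPM with NETs and 127, 131 and 125 CPM in controls (0.49 ± 0.08, edgeR adjusted p = 0.00096).

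Psmd7, the partner of Psmd14 in the deubiquitinase module, had 163, 137 and 143 CPM in NET samples and 122, 114 and 104 CPM in control samples. The groups did not overlap (0.38 ± 0.10, edgeR adjusted p = 0.0119), and leaving out control sample 3 ended the call (adjusted p = 0.0605). Psmd3 and Psmd6 also rose, by 0.38 ± 0.13 and 0.28 ± 0.10 on the log2 scale (edgeR adjusted p of 0.0343 and 0.0340). Psmd3 lost its call without NET sample 1 or 2 (0.0984 and 0.0740) and control sample 2 or 3 (0.135 and 0.1215), and Psmd6 without NET sample 1 or 2 (0.113 and 0.0613) and control sample 1 or 2 (0.0729 and 0.132). Psmd3 also lost it in both FPKM fits (0.0625 and 0.0582), and Psmd6 without both libraries numbered 1, where its log2 fold change was 0.18 (0.101). Psmd11, the least abundant lid transcript per length over both groups (83.3 FPKM with NETs and 71.6 FPKM in controls), had 155, 161 and 161 CPM with NETs and 136, 138 and 140.5 CPM in controls. Its groups did not overlap, and its log2 fold change of 0.21 ± 0.08 lay just outside the threshold (edgeR adjusted p = 0.0588). It passed with the replicate block (0.0208), upper quartile scaling (0.0224), library totals (0.0357) and both FPKM fits (0.0233 and 0.0295) and without both libraries numbered 1 (0.0418). Psmd13 and Psmd14, at 0.09 ± 0.10 and 0.05 ± 0.09, did not pass (edgeR adjusted p of 0.478 and 0.694).

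**Figure D3:**
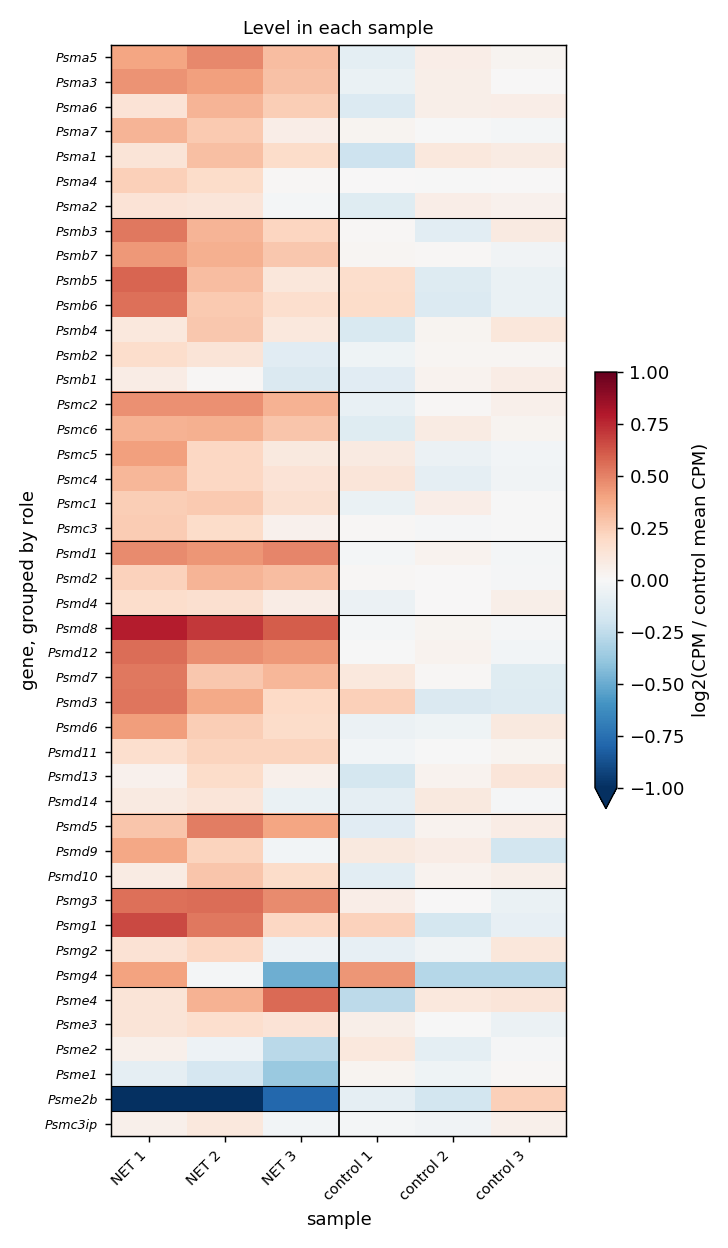
Each row is a tested member (Psmb11 left out for its low counts), each column a sample, and the colour is the log2 ratio of its CPM to the mean CPM of the controls. The scale ends at −1, which Psme2b passes in NET samples 1 and 2. Most rows are redder in the 3 NET columns, NET sample 3 is paler than the other NET samples in many rows, and Psme2b is blue.

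The chaperones of the 19S base bind its ATPases during assembly. Psmd5 rose, with 81.4, 96.2 and 88.6 CPM in NET samples and 62.3, 69.0 and 70.8 CPM in control samples, without overlap (log2 fold change 0.40 ± 0.10, edgeR adjusted p = 0.0074). Its annotated gene overlaps 573 bases of Cutal on the other strand. Psmd10, known as gankyrin, had 32.6, 37.3 and 35.0 CPM with NETs and 28.7, 31.7 and 32.2 CPM in controls (0.18 ± 0.10, edgeR adjusted p = 0.159). Psmd9 overlapped between the groups, at 31.3, 27.9 and 23.5 CPM with NETs and 25.5, 25.2 and 21.0 CPM in controls (0.21 ± 0.13, edgeR adjusted p = 0.225).

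Psmg1 to Psmg4 encode the chaperones on which the alpha ring is built. Psmg3 had 26.1, 26.3 and 24.7 CPM in NET samples and 18.6, 17.8 and 17.0 CPM in control samples, a clear separation (0.53 ± 0.10, edgeR adjusted p = 0.0017). The annotated Psmg3 gene shares 2816 bases on the same strand with the gene model Gm26938, and reads there cannot be told apart. Psmg1 had 35.2, 32.0 and 25.7 CPM with NETs and 26.1, 19.7 and 21.0 CPM in controls, where control sample 1 lay above NET sample 3. It rose by 0.48 ± 0.15 on the log2 scale (edgeR adjusted p = 0.0229), a call lost without NET sample 1 or 2 (0.0703 and 0.0640) and control sample 2 or 3 (0.0898 and 0.0773). Psmg2, the partner of Psmg1, had 40.4, 42.3 and 35.3 CPM with NETs and 34.6, 35.7 and 39.6 CPM in controls, with overlap (0.10 ± 0.10, edgeR adjusted p = 0.454). Psmg4, the partner of Psmg3, was scarce and variable. It had 10.2, 7.54 and 5.46 CPM with NETs and 10.4, 6.29 and 6.30 CPM in controls, so that sample 1 was the highest in either group and the difference of 0.01 ± 0.26 was poorly determined (edgeR adjusted p = 0.979).

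None of the 4 activator genes passed the test, and their values went in different directions. Psme1, the PA28 alpha subunit, had 292, 275 and 239.6 CPM in NET samples and 316, 301 and 313 CPM in control samples. All NET samples were below the controls, and the log2 fold change was −0.20 ± 0.10 (edgeR adjusted p = 0.111, and 0.0399 with the replicate block). Psme2, the beta subunit, which lies 5912 bases from Psme1 on chromosome 14, overlapped between the groups at 253, 236 and 203 CPM with NETs and 263, 229 and 243 CPM in controls (−0.08 ± 0.11, edgeR adjusted p = 0.545). Psme3, nuclear PA28 gamma, had 298, 306 and 299 CPM with NETs and 285, 272 and 262 CPM in controls. Its groups did not overlap, and the difference of 0.14 ± 0.08 did not pass (edgeR adjusted p = 0.192). Psme4, which encodes PA200, had 152, 177 and 206 CPM with NETs and 116, 149.9 and 151 CPM in controls (0.36 ± 0.14, edgeR adjusted p = 0.0538, and 0.0015 with the replicate block). NET sample 1 stood only just above control sample 3.

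Psme2b was the one member that fell. It had 13.5, 13.1 and 15.8 CPM in NET samples and 25.7, 24.0 and 32.1 CPM in control samples, 1.93-fold lower without overlap (log2 fold change −0.95 ± 0.14, edgeR adjusted p = 0.00037). Its annotated transcript on chromosome 11 is 99.4% identical to that of Psme2 over 794 bases, and it shares 837 bases on the same strand with the gene model Gm12185. The authors' counting could thus have split reads between the copies, and the separate level of Psme2b is uncertain. As a share of Psme2 in FPKM, it made 0.0519 ± 0.0114 in NET samples and 0.0929 ± 0.0151 in control samples (SD, n = 3 each).

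Sums of FPKM gave the balance between the parts of the complex. The 20S core summed to 2636 ± 158 FPKM in NET samples and 2216 ± 32.2 FPKM in control samples, and the 19S particle to 1942 ± 86.8 FPKM in NET samples and 1557 ± 15.7 FPKM in control samples (SD, n = 3 each). Neither sum overlapped between the groups. The whole table summed to 442060 to 487940 FPKM in NET samples and 446810 to 459080 FPKM in control samples, which did overlap. The ratio of the 19S sum to the 20S sum was 0.733, 0.724 and 0.755 in NET samples and 0.722, 0.699 and 0.688 in control samples, so the groups were apart by a small margin only. Within the core, the most abundant subunit had 2.28 ± 0.23 times the FPKM of the least abundant with NETs and 2.73 ± 0.49 times in controls. PA28 alpha and beta together summed to 563 ± 59.3 FPKM with NETs and 616 ± 36.3 FPKM in controls, and their ratio to the core was 0.213 ± 0.010 in NET samples and 0.278 ± 0.020 in control samples, without overlap. No test was run on these summed values, which join members chosen as a set.

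The immunoproteasome subunits replace the catalytic subunits of the core one for one, Psmb8 for Psmb5, Psmb9 for Psmb6 and Psmb10 for Psmb7. All 3 fell with NETs while their constitutive counterparts had positive fold changes. Psmb8 had 272, 245 and 207 CPM in NET samples and 373, 326 and 311 CPM in control samples (log2 fold change −0.48 ± 0.12, edgeR adjusted p = 0.0080). Psmb9 had 132, 101 and 89.1 CPM with NETs and 187, 142 and 151 CPM in controls (−0.58 ± 0.15, edgeR adjusted p = 0.0120, and 0.0563 without NET sample 2). Psmb10 had 75.3, 75.3 and 62.2 CPM with NETs and 85.2, 85.0 and 92.3 CPM in controls (−0.30 ± 0.10, edgeR adjusted p = 0.0319). The groups did not overlap for any of the 3 genes. The call for Psmb10 was lost under upper quartile scaling (adjusted p = 0.0650), without NET sample 2 or 3 (0.0586 and 0.0813) and without control sample 2 or 3 (0.0707 and 0.141).

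Taken as a ratio within each library, which no scaling between libraries can alter, Psmb8 over Psmb5 was 1.32 ± 0.06 in NET samples and 2.35 ± 0.12 in control samples (FPKM ratio, SD, n = 3 each). Psmb9 over Psmb6 was 1.30 ± 0.09 in NET samples and 2.45 ± 0.07 in control samples. Psmb10 over Psmb7 was 0.263 ± 0.021 in NET samples and 0.407 ± 0.023 in control samples. In all 3 ratios every NET sample was below every control sample. With Psme2b over Psme2, 4 ratios were compared by a two-sided exact permutation test, each with p = 0.1 and an adjusted p of 0.1, the smallest that 3 samples against 3 allow. The summed immunoproteasome catalytic transcripts were 0.830 ± 0.046 times the constitutive ones in NET samples and 1.47 ± 0.06 times in control samples.

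**Figure D4:**
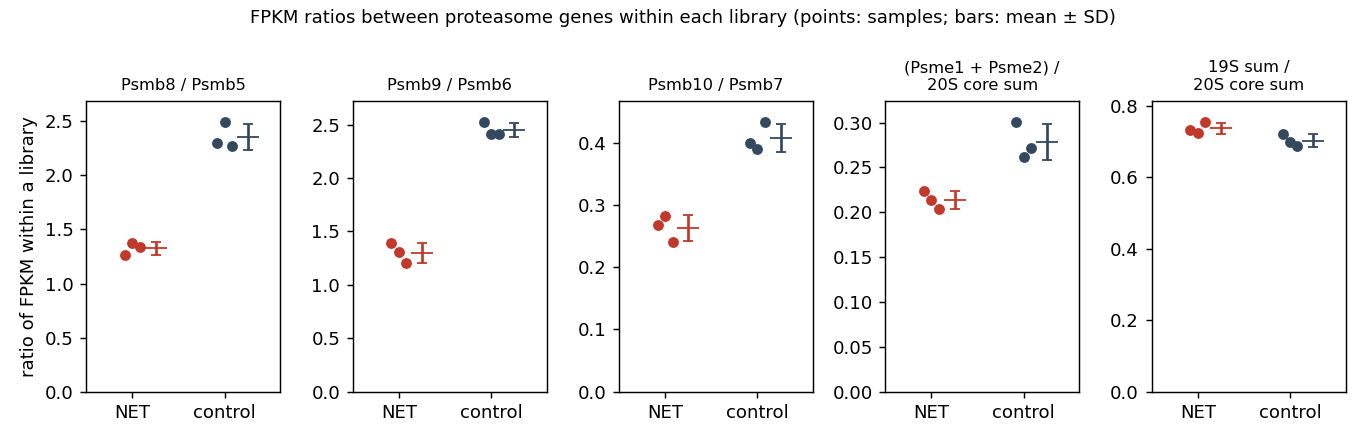
Ratios of FPKM within each library, with points for samples and bars for the mean and SD of 3 NET and 3 control samples. The first 3 panels set an immunoproteasome subunit over its constitutive counterpart, and the NET points lie below all control points, as they do for Psme1 and Psme2 over the 20S core. The ratio of the 19S sum to the 20S sum differs little, at 0.737 on average with NETs and 0.703 in controls.

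Other genes of the ubiquitin and proteasome pathway, taken from lists by role, went in both directions. Of 44 tested, 12 rose (27.3%, against 22.3% of all genes) and 6 fell (13.6%, against 22.3%), with the 3 immunoproteasome genes among those that fell. With the replicate block 20 rose (45.5%, against 27.8% of all genes). The number that rose was as low as 5 without control sample 2, 6 without NET sample 1 or control sample 3, and 7 without NET sample 2. Between 17.5% and 20.0% of all genes rose in these fits. Among subunits, inhibitors and maturation factors outside the family, 3 of 10 rose, against 22.3% of all genes. Zfand5, an activator of the 26S particle, had 101, 111 and 118 CPM in NET samples and 75.9, 83.7 and 86.3 CPM in control samples (0.43 ± 0.09, edgeR adjusted p = 0.0046). Pomp, which completes assembly of the core, had 148, 158 and 153 CPM with NETs and 109.7, 132 and 138 CPM in controls. Its log2 fold change of 0.28 ± 0.10 passed narrowly (edgeR adjusted p = 0.0483) and lost the call in every fit that left out a library except the one without control sample 3, with adjusted p up to 0.121. It was also lost with no filter on low counts (0.0564) and without both libraries numbered 1 (0.0532). Akirin2, known in human cells to bring proteasomes into the nucleus, rose by 0.27 ± 0.09 (edgeR adjusted p = 0.0364), a call lost without NET sample 1 or 2 (0.0977 and 0.106) and control sample 2 or 3 (0.135 and 0.0852) and without both libraries numbered 1 (0.0680).

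Adrm1, a ubiquitin receptor of the base whose symbol lies outside the family, had 116, 92.1 and 91.4 CPM in NET samples and 93.6, 64.2 and 68.6 CPM in control samples (0.40 ± 0.15, edgeR adjusted p = 0.0525, and 0.00056 with the replicate block). Sem1, a small lid subunit, had 81.6, 52.3 and 45.4 CPM with NETs and 65.5, 46.1 and 47.4 CPM in controls. Sample 1 was the highest in either group for both genes. Psmf1, the PI31 regulator, did not pass (0.15 ± 0.09, edgeR adjusted p = 0.190). Of the proteasome deubiquitinases Uchl5 rose by 0.26 ± 0.09 (edgeR adjusted p = 0.0388, and between 0.0962 and 0.126 without NET sample 1 or 2 or control sample 2 or 3). Its call was also lost in both FPKM fits (0.0591 and 0.0592) and without both libraries numbered 1 (0.0626). Usp14 did not pass (0.15 ± 0.12, edgeR adjusted p = 0.331).

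The transcription factors of the proteasome response were split. Nfe2l1 had 148, 124 and 150.3 CPM in NET samples and 125, 107 and 111 CPM in control samples, with overlap (0.30 ± 0.10, edgeR adjusted p = 0.0402). Its call was lost without NET sample 1 or 3 (0.0977 and 0.106) and control sample 2 or 3 (0.163 and 0.118). Ddi2, the protease that cleaves and activates the Nfe2l1 protein, was level at −0.05 ± 0.12 (edgeR adjusted p = 0.781). Nfe2l2, its relative in the oxidative stress response, fell to 40.0, 46.3 and 43.9 CPM with NETs, against 62.7, 69.0 and 68.7 CPM in controls (−0.62 ± 0.09, edgeR adjusted p = 0.00046). The repressors Bach1 and Bach2, which compete for the same element, fell as well, with log2 fold changes of −1.30 ± 0.11 and −1.69 ± 0.12. Maff, a small Maf partner, rose to 10.9, 6.72 and 10.9 CPM with NETs, against 3.02, 1.73 and 2.51 CPM in controls.

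Ubb and Rps27a, which encode ubiquitin, did not pass the test (edgeR adjusted p of 0.196 and 0.292). Uba1, the main ubiquitin-activating enzyme, rose to 696, 784 and 794 CPM with NETs, against 531, 561 and 568 CPM in controls (0.45 ± 0.09, edgeR adjusted p = 0.0027), and Uba6 did not pass (adjusted p = 0.488). Of 14 shuttle factors and p97 genes tested, 4 rose (28.6%, against 22.3% of all genes) and 0 fell. Vcp, which encodes the p97 unfoldase, had 755, 771 and 788 CPM with NETs and 627, 629 and 635 CPM in controls (0.29 ± 0.08, edgeR adjusted p = 0.0156, and 0.0764 without control sample 2 and 0.0531 without control sample 3). Ubqln1, a shuttle factor, rose by 0.41 ± 0.09 (edgeR adjusted p = 0.0057).

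The libraries numbered 1 stood apart from the others along the second principal component of all genes, which carried 8.43% of the variance. In 15 of the 45 members sample 1 had the highest value in either group, a larger share than the 24.2% of all genes. The transcripts of these 15 had a median GC content of 52.8%, against 48.9% for the other 30 members. They included Psmb5, Psmb6, Psmb7, Psmd3, Psmd7, Psmg1 and Psmg4. The part of this in the results was not tested. Without both libraries numbered 1, which leaves 2 samples a group, 21 members rose and 1 fell, and 23.6% of all genes rose.

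Of the 18 members called, 11 kept their call under all 17 alternative fits: Psma3, Psma5, Psmb7, Psmc2, Psmc6, Psmd1, Psmd5, Psmd8, Psmd12 and Psmg3, which rose, and Psme2b, which fell. They include members of the core, the base, the lid and the chaperones of both parts. The fold threshold of 0.58 on the log2 scale is not one of these 17 fits, and of the 18 members only Psmd8 and Psme2b also passed it. In the genome the 46 members lie on 16 chromosomes, and 9 of them overlap a protein-coding gene on the other strand.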

How the data were processed

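Poly(A) RNA libraries of 3 NET and 3 control samples were made with a strand-marking method and sequenced as paired ends. Estimated counts per gene, unscaled, were deposited by the authors as one table in which 31.6% of values were whole to within 0.005, beside a second table of FPKM values that the authors had scaled for length and library size. The submitters' processing notes name the build mm10. An aligner, a counter, an annotation or the use of strand in counting is not given in the sources used here. Both tables list 22064 genes, of which 6459 were blank in all samples and treated as missing.

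Estimated counts were rounded and filtered with filterByExpr (12546 of 15605 genes kept), scaled by TMM and fitted with edgeR 4.0.16 in R 4.3.3 (quasi-likelihood F test, group only, two-sided, Benjamini-Hochberg over all genes tested, threshold 0.05). CPM values are TMM-scaled, except those of the cell type markers, which are scaled to library totals only. The SE of a fold change comes from its F statistic. Its 95% interval uses the t quantile at the 9.98 degrees of freedom of that test. Coordinates, promoter windows and gene overlaps came from RefSeq GRCm38.p6, the assembly of mm10, and from GENCODE. The fit was tested on simulated data. Chi-square per degree of freedom between replicates was 3.05 to 27.0, and each library was counted as its own sample.

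Same-numbered samples deviated together to unlike degrees (correlations of 0.56, 0.22 and 0.11 of their deviations from the group means). The main fit did not pair the samples, and the replicate number entered as a block only in an alternative fit. No source says what a number marks, and NET sample 2 correlated more with control sample 3 (0.29) and NET sample 3 with control sample 2 (0.26). The alternatives were other scalings, filters, DESeq2 1.42.0, limma 3.58.1 (voom, and log2(FPKM + 1) and log2(FPKM + 0.1)), the replicate block, a fold threshold and leaving out libraries. Those run on the other pathway genes beyond DESeq2 and single libraries were chosen after seeing the data.

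Members and lists were chosen with earlier results of these data known. Named were all activator and chaperone genes, in each role the 3 members of smallest adjusted p and the highest and lowest by FPKM, any member called against the rest, the tissue-restricted subunits, and fixed genes or the 3 of smallest adjusted p in each other list. Psma1, Psma7, Psmb1, Psmb2, Psmb5, Psmc3, Psmc4, Psmc3ip, Psmd3, Psmd6, Psmd13 and Psmd14 are not taken by this rule, and their values had been seen before they were named. One gene of these lists is not reported here.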

Additional observations from a re-analysis of the deposited data

How the results depend on the processing

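The number of members raised by NETs was 17 with TMM scaling and edgeR and lay between 16 and 25 under other scalings, filters and tools. It was 26 with the replicate block, where 2 members fell in place of 1, and 1 when a log2 fold change above 0.58 was also required. It was 11 to 21 in fits leaving out a single library. The share of all genes raised was 22.3% in the main fit, 27.8% with the replicate block and 17.5% to 22.7% without a single library. The number of other pathway genes raised was 12, 20 with the replicate block, and 5 to 16 in fits leaving out a library. The median log2 fold change of the members was 0.23, 0.28 with upper quartile scaling and 0.18 without both libraries numbered 1, while no scaling moved the median of all genes past 0.04. Of the single-gene values of members under the alternatives, 676 kept direction and call, 45 gained a call, 29 lost it and 15 turned in sign.

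All of those 15 belong to members that did not pass the test. Without both libraries numbered 1, Psma2 was at −0.0039, Psmb2 at −0.0079 and Psmd14 at −0.0135 on the log2 scale. Psmb1 was at 0.0321 with upper quartile scaling, 0.0044 with library totals, 0.0019 in both FPKM fits and −0.0735 to 0.0455 without a library, and Psme2 was at −0.153 to 0.0018 without a library. Psmg4 was at −0.0038 and −0.0041 in the FPKM fits and −0.2333 to 0.2926 without a library. Among other genes, Sem1 was at −0.1127 to 0.3525 and Ddi2 at −0.1454 to 0.0609 without a library, and Ddi2 at 0.029 without both libraries numbered 1. The causes were not tested. Depth limits Psma8, whose counts were too few for the test.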
